A study of Danio rerio with 15 samples.

Results

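Whole zebrafish larvae without RagA were set against larvae without the transcription factors that RagA holds back. The groups were uninjected rraga mutants (3 libraries) and triple mutants of tfeb, tfe3a and tfe3b injected with zymosan A, cell wall particles of yeast (3 libraries). These are 6 of the 15 libraries of the series, chosen by their labels. All larvae were of the TL strain, raised in water with methylene blue and PTU, a blocker of pigment synthesis, and taken at 4 days post fertilization. The rraga larvae were scored under a confocal microscope before freezing, and the injected larvae were examined under one. The other 3 groups, of 3 libraries each, were uninjected triple mutants, uninjected wild type and zymosan-injected wild type. No group of rraga mutants was injected and no group received an injection without zymosan. Genotype, injection and handling therefore differ together in this comparison and cannot be told apart within it. The kind of lesion in each line, how many founders a line came from and how many larvae were pooled per library are not given in the sources used here.

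RagA is a small GTPase that sits with its partner RagC on the lysosome through the Ragulator complex and brings mTORC1 there when amino acids are plentiful. The Rag GTPases also hold Tfeb and Tfe3 at the lysosome, where mTORC1 phosphorylates them and keeps them out of the nucleus. Once released, Tfeb and Tfe3 switch on genes for lysosomal enzymes, the proton pump and autophagy. Microglia, the macrophages of the brain, depend on this system because they digest dead neurons in their lysosomes. Zymosan particles offer phagocytes a load to digest and set off inflammation.

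The larvae differed across the transcriptome. Of 24609 genes listed, 19006 had enough counts to be tested. Of these, 4774 (25.1%) differed at an adjusted p under 0.05 in edgeR's quasi-likelihood test. In rraga mutants 2385 (12.5%) were higher and 2389 (12.6%) lower, and 922 of the former and 722 of the latter differed more than 2-fold. The median log2 fold change over all genes tested was 0.01. Counts of gene lists in this comparison are to be read beside these shares of 12.5% higher and 12.6% lower. Every log2 fold change below is rraga mutants over zymosan-injected triple mutants unless another pair is named, with its standard error, and every level is in CPM (counts scaled to library size), per library in the order of replicates 1, 2 and 3.

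A second comparison took the wild-type response to injection out, as rraga over wild type, both uninjected, minus triple mutants over wild type, both with zymosan. In it 2149 genes (11.3%) differed, 1277 higher (6.72%) and 872 lower (4.59%). It is called the net difference below, and assumes that wild type and triple mutants would respond alike. The 6 libraries held 12733389 to 14476513 counts each. The mitochondrial genome took 11.87% to 12.65% of counts in rraga mutants and 9.13% to 10.66% in the injected triple mutants, without overlap. Wild-type libraries spanned 10.06% to 12.64% without injection and 9.4% to 14.01% with it. Of the 13 mitochondrially encoded genes, 3 were higher and 0 lower, with mt-cyb at 0.70 ± 0.19, mt-nd4l at 0.67 ± 0.18 and mt-nd5 at 0.52 ± 0.16. That count depended on the fit: it was 10 with only the libraries compared, 7 without a filter on low counts and 5 without triple-mutant replicate 3, while mt-nd5 lost its call without triple-mutant replicate 1 or 2. Against uninjected wild type 0 of the 13 passed in rraga mutants. Against injected wild type 0 were higher and 5 lower in injected triple mutants.

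The targeted genes were read first. On GRCz11 tfe3b is ENSDARG00000019457 on chromosome 11 (25504215 to 25519837). Its level was 1.72, 0.662 and 0.503 CPM in rraga mutants and 0, 0.0677 and 0.859 CPM in injected triple mutants. The groups overlapped through triple-mutant replicate 3, and the difference did not pass (1.61 ± 0.78, edgeR adjusted p = 0.138). Without that library it did pass, at 4.46 (adjusted p = 0.00313). In triple mutants against wild type, both injected, tfe3b was lower (-3.17, adjusted p = 0.00556). Levels of tfeb (ENSDARG00000010794, chromosome 11, 22287954 to 22361306) were 10.7, 8.68 and 10.2 CPM in rraga mutants and 11.4, 11.2 and 12.2 CPM in injected triple mutants (-0.23 ± 0.20, adjusted p = 0.442). Levels of tfe3a (ENSDARG00000098903, chromosome 8, 7778770 to 7809451) were 3.86, 3.16 and 4.02 CPM and 3.64, 5.69 and 3.08 CPM (-0.17 ± 0.36, adjusted p = 0.781). Those 2 genes thus showed no loss of transcript in the triple mutants, and a gene that keeps its transcript checks no label.

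The rraga transcript itself (ENSDARG00000104149, chromosome 14, 14027427 to 14094406) was higher in the rraga mutants, at 26.6, 24.9 and 26.5 CPM against 11.1, 14.5 and 15.7 CPM (0.91 ± 0.14, adjusted p = 5.25e-05). It was also above uninjected wild type, which averaged 14.7 CPM (0.83, adjusted p = 0.000338). Of the 6 MiT/TFE family genes tested, 0 passed in either direction, at a list median of -0.20. The pigment cell factor gene mitfa, at 2.29, 3.02 and 3.73 against 2.90, 3.79 and 3.87 CPM, overlapped between the groups.

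Genes for lysosomal enzymes were higher in rraga mutants. Over 5 lysosomal lists together, 69 of 137 genes tested (50.4%) were higher and 10 (7.3%) lower, against 12.5% and 12.6% of all genes, and the median log2 fold change was 0.46 against 0.01. The proteases stood highest, with 18 of 20 higher, 0 lower and a median of 1.42. The remaining proteases did not pass: ctss1 (-0.60 ± 0.69) was at most 1.19 CPM in the 6 libraries, and prcp (0.70 ± 0.26) had an adjusted p of 0.055. The summed level of the list was 1603 to 1774 CPM in rraga mutants and 814.4 to 850.1 CPM in injected triple mutants. Wild type lay between them, at 858.9 to 925.1 CPM without injection and 987.3 to 1023 CPM with it. Uninjected triple mutants were lowest, at 605.3 to 677.3 CPM. In the plot of all lists these proteases have the median farthest from 0.

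**Figure D1:**
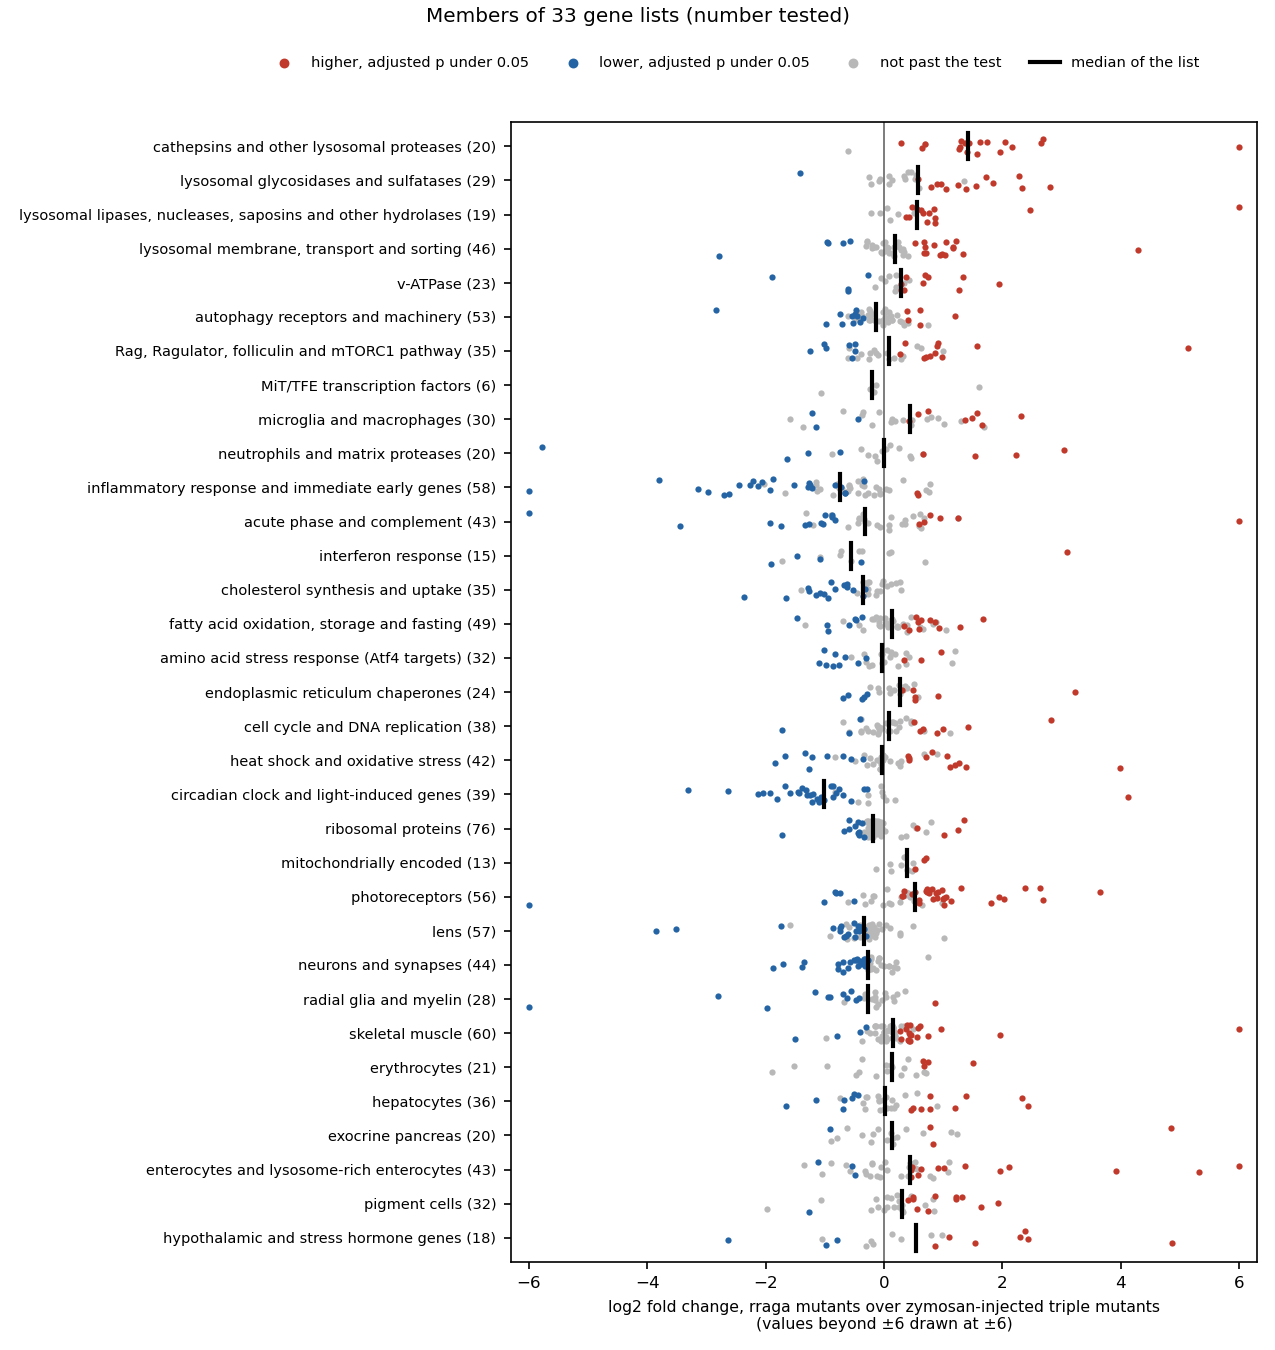
Log2 fold change of every tested member of 33 gene lists, rraga mutants over zymosan-injected triple mutants (x axis, values beyond 6 drawn at 6). Each point is a gene, coloured by whether it passed edgeR's test, and the black bar is the list median, at 1.42 for the lysosomal proteases and -1.02 for the clock and light genes.

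Cathepsin B, a major cysteine protease, is encoded by ctsba (ENSDARG00000055120, chromosome 17, 32622931 to 32631514). The gene stood at 121, 237 and 153 CPM in rraga mutants and had 0 counts in all 3 injected triple-mutant libraries. With a floor of 3 counts for the whole group, the difference was at least 2390-fold. Its average was 50.4 CPM in wild type without injection and 63.5 CPM with it, and it was at 0 in uninjected triple mutants as well. Its second copy, ctsbb, was measurable in both mutants, at 17.5, 17.1 and 23.3 against 5.05, 1.15 and 6.80 CPM (2.16 ± 0.35, adjusted p = 7.14e-05). Cathepsin K, a collagen-degrading protease made strongly by osteoclasts in mammals, is encoded by ctsk (ENSDARG00000040251, chromosome 16, 29492749 to 29502787). Its transcript stood at 49.4, 41.0 and 39.2 CPM in rraga mutants and 7.14, 5.08 and 8.45 CPM in injected triple mutants (2.65 ± 0.18, adjusted p = 1.8e-10). Here both sides moved: rraga mutants were above uninjected wild type (1.19, adjusted p = 2.35e-05) and injected triple mutants below injected wild type (-1.45, adjusted p = 4.26e-06).

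Cathepsin D, the main aspartic protease of lysosomes (ctsd), stood at 133, 130 and 129 against 56.1, 47.9 and 57.6 CPM (1.28 ± 0.10, adjusted p = 4.07e-09). Cathepsin Z, a carboxypeptidase (ctsz), stood at 88.8, 88.1 and 91.0 against 32.6, 31.2 and 37.5 CPM (1.4 ± 0.11). Cathepsin C, which activates the serine proteases of immune cell granules (ctsc), stood at 59.4, 63.1 and 73.4 against 25.8, 23.6 and 26.9 CPM (1.36 ± 0.11). For these 3 genes the lowest rraga library was more than 2-fold above the highest triple-mutant library. In each, rraga mutants were above uninjected wild type (ctsd 1.16, ctsz 1.22, ctsc 1.38), while injected triple mutants against injected wild type did not pass (ctsd -0.19, ctsz -0.23, ctsc 0.02).

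The protective protein gene ctsa, whose product shields beta-galactosidase and neuraminidase, stood at 53, 58.9 and 51.9 against 19, 18.1 and 17.8 CPM (1.58 ± 0.13, adjusted p = 2.63e-09). For ctsla, for cathepsin L, the values were 432, 475 and 412 against 273, 275 and 264 CPM (0.70 ± 0.10, adjusted p = 1.47e-05). Within triple mutants ctsla was higher in the injected than in the uninjected group (0.89, adjusted p = 1.05e-06), which averaged 146 CPM.

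Among enzymes that cut sugars, 13 of 29 were higher and 1 lower (median 0.57). The hexosaminidase beta subunit gene hexb (ENSDARG00000034368, chromosome 5, 34600714 to 34616599), whose product with its alpha partner degrades gangliosides, stood at 102, 114 and 119 CPM in rraga mutants and 31.8, 33.4 and 35.4 CPM in injected triple mutants (1.73 ± 0.11, adjusted p = 7.14e-11). Unlike ctsla, hexb was lower with zymosan than without in triple mutants (-0.88, adjusted p = 4.56e-06), and its group mean without injection was 61.9 CPM. The alpha subunit gene hexa was higher too, at 6.87, 10.2 and 7.61 against 0.595, 1.96 and 0.931 CPM (2.80 ± 0.57).

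The beta-galactosidase-like gene glb1l stood at 23.8, 23.8 and 30.6 against 6.54, 3.93 and 5.01 CPM (2.34 ± 0.20, adjusted p = 5.4e-09). It was above wild type in rraga mutants (1.32) and below wild type in injected triple mutants (-1.04). Also higher were naga (1.55 ± 0.15), for alpha-N-acetylgalactosaminidase, fuca1.1 (1.39 ± 0.15), for alpha-fucosidase, and man2b1 (1.06 ± 0.13), for alpha-mannosidase. The glucocerebrosidase gene gba, whose human counterpart is mutated in Gaucher disease, was higher by less (0.79 ± 0.22, adjusted p = 0.0118). The exception was aga, for aspartylglucosaminidase, at 1.93, 1.25 and 1.72 against 4.68, 3.45 and 5.01 CPM (-1.41 ± 0.30, adjusted p = 0.00114). It sits on chromosome 14, as rraga does.

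Lipases, nucleases, saposins and other hydrolases had 13 of 19 higher and 0 lower (median 0.55), with 8 higher when triple-mutant replicate 2 was left out. The acid nuclease gene dnase2, whose product clears the DNA of engulfed cells, stood at 12.6, 11 and 13.7 against 1.78, 2.1 and 2.86 CPM (2.46 ± 0.23, adjusted p = 2.55e-08). This difference lay on the triple-mutant side: rraga mutants against uninjected wild type did not pass (0.47, adjusted p = 0.125), and injected triple mutants were below injected wild type (-2.20, adjusted p = 2.63e-07). The prosaposin gene psap, a precursor of cofactors for sphingolipid breakdown, showed the other arrangement. It stood at 662, 680 and 633 against 408, 410 and 459 CPM (0.63 ± 0.09), with rraga above wild type (0.63) and no pass for injected triple mutants against wild type (-0.14, adjusted p = 0.381). The cholesterol carrier gene npc2 was higher (0.73 ± 0.11), as was gnptab (0.85 ± 0.13), for the enzyme that makes the mannose 6-phosphate tag. The acid phosphatase gene acp5b had 0 counts in injected triple mutants and 99 in rraga mutants, at least 33.6-fold higher against the same floor.

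**Figure D2:**
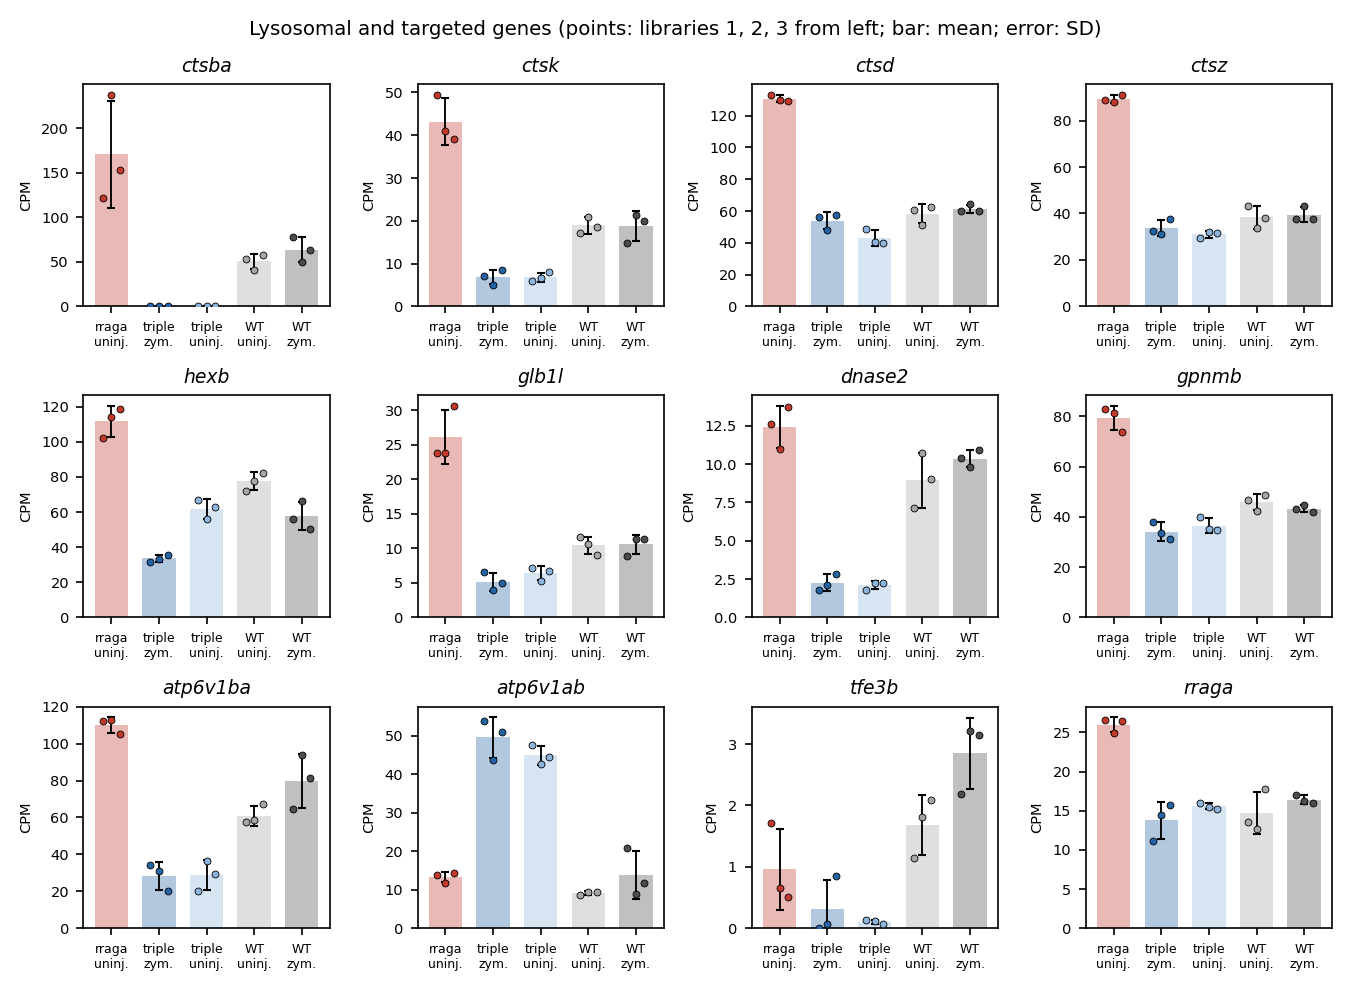
CPM of 10 lysosomal and 2 targeted genes in 5 groups of 3 libraries (points, with bars for the mean and lines for the SD, y axes from 0). Levels of ctsk are 39.2 to 49.4 CPM in rraga mutants, 5.08 to 8.45 CPM in injected triple mutants and between those in both wild-type groups, while atp6v1ab is high in both triple-mutant groups.

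The lysosomal membrane moved less. Of its transport and sorting genes 15 of 46 were higher (32.6%) and 5 lower (10.9%), against 12.5% and 12.6% of all genes. The list median was 0.19. Higher were gpnmb, for a glycoprotein of melanosomes and macrophages, at 82.9, 81.2 and 73.8 against 38.1, 33.4 and 31.0 CPM (1.21 ± 0.10, adjusted p = 7.84e-09), and vps41, for a tethering subunit, at 45.6, 46.2 and 59.7 against 20.1, 20.3 and 19.8 CPM (1.33 ± 0.14). The sorting receptor gene sort1a was at 10.7, 3.61 and 7.11 against 0.372, 0.0677 and 0.644 CPM (4.29 ± 0.56). The 5 lower genes were mcoln1a (-0.57 ± 0.17), for the calcium channel mucolipin, tmem175 (-2.78 ± 0.64), for a potassium and proton channel, scarb2a (-0.96 ± 0.16), tmem106ba (-0.94) and slc48a1a (-0.69), for a haem transporter. The call for mcoln1a was lost without triple-mutant replicate 1 (adjusted p = 0.0743) and without rraga replicate 2 (adjusted p = 0.072). The structural membrane protein gene lamp2 overlapped between groups, at 52.5, 51.6 and 49.4 against 54.8, 47.2 and 49.1 CPM (0.02 ± 0.12).

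The v-ATPase, which pumps protons into the lysosome, had 10 of 23 higher (43.5%) and 4 lower (17.4%), against 12.5% and 12.6% of all genes. Its median was 0.29, and the 4 lower were 2 without triple-mutant replicate 3 or rraga replicate 3. Its B subunit gene atp6v1ba (ENSDARG00000013443, chromosome 17, 21372291 to 21418340) stood at 112, 113 and 105 against 34.3, 30.8 and 20.1 CPM (1.95 ± 0.18, adjusted p = 3e-08). The other B subunit gene, atp6v1b2, went the opposite way, at 34.6, 44.4 and 35.4 against 58.1, 55.6 and 60.3 CPM (-0.60 ± 0.13). A catalytic subunit gene, atp6v1ab (ENSDARG00000076318, chromosome 24, 21154120 to 21172122), was lower, at 13.9, 11.8 and 14.4 against 54.0, 43.7 and 51.1 CPM (-1.89 ± 0.19, adjusted p = 1.08e-07). Wild-type averages of that gene were 9.19 CPM without and 13.9 CPM with injection, so the triple mutants stood apart from all other groups. The 2 remaining lower genes were atp6v0a2b (-0.61) and atp6ap1a (-0.27), while atp6v1g1 (1.26 ± 0.13), tcirg1b (1.34 ± 0.17) and atp6v0a1a (0.75 ± 0.10) were higher. Both atp6v1ba and atp6v1ab lie in 5 Mb windows, on chromosomes 17 and 24, where 11.4% and 17.8% of the tested genes were more than 4-fold apart, against 3.09% of all genes.

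The 2 mutants were then placed against the wild type of their own treatment, in comparisons that share no library. Of the 137 lysosomal genes, 61 were higher and 4 lower in rraga mutants than in uninjected wild type (median 0.45), where 7.58% and 6.41% of all genes were. In injected triple mutants against injected wild type, 4 were higher and 22 lower (median -0.12), where 5.21% and 6.66% of all genes were. The calls of that comparison over all genes, 2255, were 3168 without wild-type zymosan replicate 3 and 1540 without wild-type zymosan replicate 1. Its lysosomal counts were not recomputed with a library left out, so a gene that did not pass in it may depend on 1 library. The net difference had 55 higher and 3 lower (median 0.51). Zymosan in triple mutants, against no injection, had 15 higher and 3 lower (median 0.00), where 7.64% and 5.18% of all genes were. For the proteases alone the counts were 15 higher and 0 lower of 20 on the rraga side, and 0 higher and 7 lower on the triple-mutant side.

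**Figure D3:**
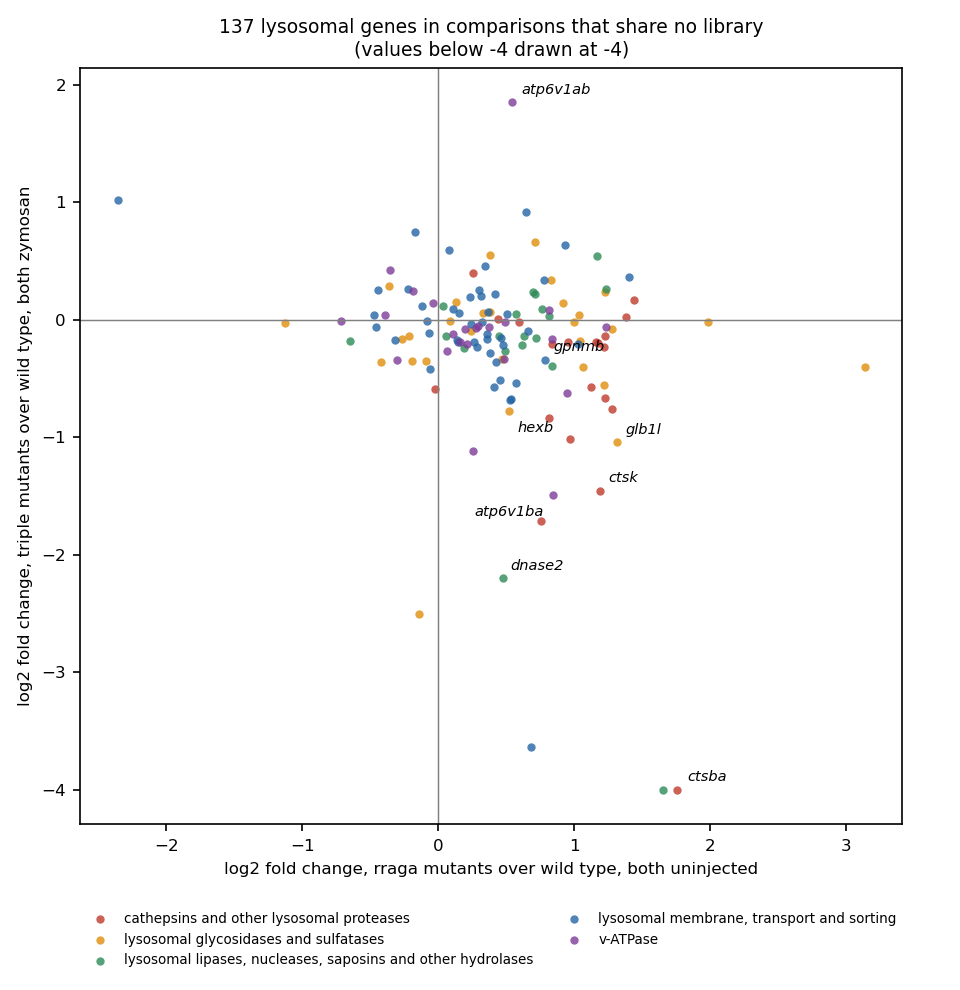
Each of 137 lysosomal genes by its log2 fold change in rraga mutants over wild type, both uninjected (x axis), and in triple mutants over wild type, both with zymosan (y axis, values below -4 drawn at -4). The 20 proteases have a median of 1.15 on the x axis, and ctsk (1.19, -1.45) and glb1l (1.32, -1.04) lie low on the right, whereas dnase2 (0.47, -2.20) is moved along the y axis.

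Of 53 autophagy genes tested, 5 were higher (9.43%, against 12.5% of all genes) and 11 lower (20.8%, against 12.6%), with a median of -0.13. The 11 were 7 without rraga replicate 3. Against uninjected wild type rraga mutants had 5 higher and 1 lower, the net difference had 4 higher and 2 lower, and injected triple mutants against uninjected ones had 10 higher and 0 lower. The higher ones were calcoco1b (1.21 ± 0.23), for a receptor, atg3 (0.60 ± 0.12) and atg7 (0.61), for enzymes of Atg8 conjugation, gabarapb (0.38) and ambra1b (0.41). Its paralogue gabarapa was lower, at 15.3, 17.2 and 20.6 against 32.9, 35.5 and 36.9 CPM (-0.99 ± 0.12, adjusted p = 1.79e-06). Kinase complex genes were lower as well, with rb1cc1 at -0.71 ± 0.10 and ulk2 at -0.53 ± 0.10. The cargo receptor gene sqstm1, often used as a Tfeb target, did not pass (-0.38 ± 0.18, adjusted p = 0.147), and both mutants were above their wild type in it (1.22 in rraga, 0.93 in injected triple mutants).

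In the Rag, Ragulator, folliculin and mTORC1 list 11 of 35 genes were higher and 7 lower (median 0.09), where 12.5% and 12.6% of all genes were. The 7 were 3 without triple-mutant replicate 1. Ragulator genes were among the higher, with lamtor1 at 8.87, 7.14 and 9.76 against 3.87, 5.01 and 4.94 CPM (0.90 ± 0.23, adjusted p = 0.00554), lamtor2 (0.71 ± 0.19), lamtor3 (0.67) and lamtor4 (0.85). The GATOR1 gene depdc5, for an inhibitor of the Rag GTPases, was higher (0.78 ± 0.12). Lower were sesn1 (-0.98 ± 0.10) and sesn2 (-1.01 ± 0.29), for stress-induced inhibitors of mTORC1, and eif4ebp1, for a translation repressor that mTORC1 inactivates, at 9.59, 6.11 and 8.04 against 22.9, 18.7 and 14.7 CPM (-1.24 ± 0.19, adjusted p = 3.18e-05). Over this list the net difference had 5 higher and 1 lower, and rraga mutants against uninjected wild type 5 higher and 2 lower. Injected against uninjected triple mutants had 4 higher and 0 lower. In the net difference sesn1 did not pass (0.15 ± 0.14), while eif4ebp1 did (-1.28 ± 0.26). A pair of partner genes was uncertain: rragca was lower (-0.54 ± 0.19, adjusted p = 0.0353) but lost the call when any 1 of 4 of the libraries was left out, and rragd, a reported Tfeb target in mammals, did not pass (1.00 ± 0.41, adjusted p = 0.0788). The mTOR complex subunit gene mlst8 showed the widest gap of the list, at 5.29, 4.42 and 3.73 against 0.0743, 0.0677 and 0.215 CPM (5.14 ± 0.56), and was near 0 in uninjected triple mutants too. It lies between 15 and 20 Mb of chromosome 12, where 15 of 84 tested genes were more than 4-fold higher and 0 lower.

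Of 30 macrophage and microglia genes 8 were higher in rraga mutants and 3 lower (median 0.44), where 12.5% and 12.6% of all genes were. The net difference had 5 higher and 2 lower, and rraga mutants against uninjected wild type 6 higher and 3 lower. In whole larvae, more cells of a type and more RNA per cell cannot be told apart. The apolipoprotein gene apoeb, abundant in microglia and also in other tissues, stood at 432, 409 and 424 against 262, 265 and 232 CPM (0.74 ± 0.09, adjusted p = 3.45e-06). Progranulin genes, whose products work in lysosomes, were higher, with grna at 4.15, 3.75 and 4.38 against 1.41, 0.542 and 0.501 CPM (2.32 ± 0.48) and grn1 at 6.73, 4.93 and 5.10 against 1.78, 1.02 and 2.86 CPM (1.57 ± 0.31). The leukocyte actin-bundling gene lcp1 was higher as well (1.49 ± 0.22). The 3 lower genes of the main comparison were apoea (-1.14 ± 0.23), aif1l (-0.43 ± 0.11) and the haem oxygenase gene hmox1a (-1.21 ± 0.40). The receptor gene csf1ra, which macrophages need, overlapped between the groups, at 10.7, 8.02 and 5.31 against 10.6, 4.47 and 7.16 CPM (0.11 ± 0.32, adjusted p = 0.839). Other defining markers gave few reads: mpeg1.1 had 3, 0 and 7 counts against 0, 0 and 1, c1qc had 0, 0 and 0 against 0, 1 and 0, and p2ry12 had 13, 28 and 21 against 12, 8 and 18. The summed level of the 30 genes was 645.4 to 696.7 CPM in rraga mutants and 490.3 to 529.5 CPM in injected triple mutants, and its part in the lysosomal differences was not tested.

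Neutrophil genes went both ways in the main comparison, with 4 of 20 higher and 4 lower, where 12.5% and 12.6% of all genes were. In rraga mutants against uninjected wild type 8 were higher and 0 lower, where 7.58% and 6.41% of all genes were. The net difference had 1 higher and 1 lower, and injected against uninjected triple mutants 5 higher and 2 lower. Myeloperoxidase transcript (mpx) stood at 7.87, 8.32 and 7.83 CPM in rraga mutants and 0.669, 1.29 and 0.931 CPM in injected triple mutants (3.04 ± 0.32, adjusted p = 2.44e-07). The granule protein gene npsn stood at 22.0, 19.2 and 19.8 against 3.49, 3.11 and 6.37 CPM (2.23 ± 0.22). Both were lower with zymosan than without in triple mutants (-1.67 and -1.53), and neither passed in the net difference (0.31 ± 0.51 and 0.59 ± 0.32). The gelatinase gene mmp9, induced in inflammation, went the other way, at 3.79, 4.56 and 3.30 against 15.2, 10.1 and 11 CPM (-1.64 ± 0.26), with timp2b (-1.28 ± 0.17), nccrp1 (-0.74 ± 0.19) and lta4h also lower, and lect2l (1.54 ± 0.34) and mmp14b (0.65 ± 0.22) higher. The neutrophil lysozyme gene lyz had 1 count over the 6 libraries.

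Inflammatory and immediate early genes were lower in rraga mutants, the uninjected group. Of 58 tested, 23 were lower (39.7%, against 12.6% of all genes), with a list median of -0.74. The 2 higher (3.45%, against 12.5%) were cebpa (0.56 ± 0.16) and dusp2 (0.58 ± 0.18). The 2 higher calls were 1 without triple-mutant replicate 2 or 3 or rraga replicate 3, and 0 without rraga replicate 2. The cytokine signalling inhibitor gene socs3b (ENSDARG00000026611, chromosome 12, 34258139 to 34277465) stood at 19.2, 15 and 13.5 against 93.1, 85.1 and 83.2 CPM (-2.45 ± 0.13, adjusted p = 2.26e-12). It differed in triple mutants with and without zymosan by as much (2.5), and the net difference did not pass (0.23 ± 0.18, adjusted p = 0.453). The same held for cebpb (-1.52 ± 0.12, net 0.16 ± 0.16), atf3 (-2.27 ± 0.18, net -0.26 ± 0.25) and junba (-1.88 ± 0.13, net -0.04 ± 0.17), transcription factor genes that inflammation induces. The leptin gene lepb had 0 counts in rraga mutants and 152 in injected triple mutants, at least 49.8-fold lower, and the interleukin gene il1b was at 0, 0 and 0.287 against 0.818, 0.406 and 1.22 CPM (-2.97 ± 1.01).

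A pair of AP-1 genes differed also in the net comparison. For junbb the levels were 2.72, 3.09 and 3.59 CPM in rraga mutants and 40.4, 39.6 and 50.8 CPM in injected triple mutants (-3.79 ± 0.17, adjusted p = 2.44e-13). Uninjected wild type averaged 25.7 CPM, far above rraga mutants (-3.03, adjusted p = 3.4e-11), and the net difference was -3.50 ± 0.22. For fosab the levels were 5.01, 4.78 and 5.89 against 28.8, 22.9 and 21.0 CPM (-2.21 ± 0.15, net -1.76 ± 0.20), again with rraga mutants below uninjected wild type (-2.16). Over the inflammatory list the net difference had 1 higher and 5 lower of 58, at a median of -0.09.

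Of acute phase and complement genes, made mostly by the liver, 6 of 43 were higher and 12 lower (median -0.32). The net difference had 7 higher and 1 lower (median 0.17), rraga mutants against uninjected wild type 11 higher and 1 lower, and injected against uninjected triple mutants 10 higher and 0 lower. The fibrinogen gene fga stood at 116, 132 and 123 against 483, 508 and 422 CPM (-1.93 ± 0.11, adjusted p = 5.28e-12), without a pass in the net difference (-0.24 ± 0.15). The hepcidin gene hamp, which restrains iron export, had 3 counts in rraga mutants and 220 in the other group, for a ratio of 72.1 with a 95% counting interval from 24.4 to 352, and hamp was lower in rraga mutants than in uninjected wild type too (-4.37, adjusted p = 0.00029). On the other side were tfa, for the iron carrier transferrin, at 976, 1138 and 1186 against 686, 729 and 518 CPM (0.77 ± 0.16), and the transferrin receptor gene tfr1a (0.75 ± 0.14). Both were above uninjected wild type in rraga mutants (1.09 and 1.92), and both passed in the net difference (0.98 ± 0.23 and 0.85 ± 0.21). In tfr1a the net difference was much smaller than the rraga side, which places injected triple mutants above injected wild type too. Of 15 interferon response genes 4 were lower (26.7%, against 12.6% of all genes), namely irf1b (-1.91 ± 0.23), irf9 (-1.46 ± 0.19), stat1a (-0.39 ± 0.10) and eif2ak2 (-1.07 ± 0.38), and 1 was higher, ifih1 (3.09 ± 0.52). The call for eif2ak2 was lost in 7 of the alternatives. Against uninjected wild type rraga mutants had 1 interferon gene higher and 0 lower. The net difference had 2 higher and 0 lower, and injected against uninjected triple mutants 3 higher and 0 lower.

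Clock and light-induced genes had the largest share lower of any list, with 29 of 39 lower (74.4%, against 12.6% of all genes). The list median was -1.02, and 1 gene was higher. In injected against uninjected triple mutants 27 were higher and 0 lower, where 7.64% and 5.18% of all genes were. Against uninjected wild type rraga mutants had 16 higher and 7 lower, where 7.58% and 6.41% of all genes were. The period gene per2, which light induces directly in zebrafish, stood at 97.4, 99.5 and 14.3 CPM in rraga mutants and 283, 300 and 292 CPM in injected triple mutants (-2.05 ± 0.35, adjusted p = 0.000142). Replicate 3 stood apart within the rraga group. The same was true of the photolyase-family gene cry5, at 25.3, 22.7 and 7.83 against 34.4, 39.7 and 38.9 CPM (-1.02 ± 0.26). Wild-type averages without injection were 9.56 CPM for per2 and 1.29 CPM for cry5, and with injection 225 and 28.0 CPM, so rraga replicates 1 and 2 lay between the uninjected and the injected groups. Other clock genes were even across the rraga libraries: nfil3-6 stood at 4.51, 5.08 and 4.81 against 45.7, 48.3 and 48.5 CPM (-3.31 ± 0.18) and per1b at 31.0, 29.9 and 26.4 against 113, 102 and 91.2 CPM (-1.81 ± 0.11). The 1 higher gene was lonrf1, at 32.3, 27.5 and 15.4 against 1.19, 1.08 and 2.00 CPM (4.13 ± 0.43).

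In the net difference the clock list had 9 higher and 4 lower, at a median of 0.14. For per2 and cry5 that comparison had the opposite sign, at 2.5 ± 0.52 and 3.48 ± 0.45. With each of the 6 libraries left out in turn, 26 to 29 members were lower in the main comparison. The time of day of freezing and the light each group received are not given in the sources used here. The same replicate stood apart in heat shock genes, with hsp90aa1.2 at 79.3, 81.5 and 235 CPM and the collagen chaperone gene serpinh1b at 17.9, 19.6 and 50.0 CPM, against 1.49, 1.90 and 2.08 CPM of serpinh1b in injected triple mutants (3.99 ± 0.33). Of the heat shock and oxidative stress genes 11 of 42 were higher (26.2%) and 9 lower (21.4%), against 12.5% and 12.6% of all genes. The 11 were 7 without triple-mutant replicate 2. The constitutive chaperone gene hspa8 was lower, at 121, 123 and 121 against 422, 356 and 521 CPM (-1.83 ± 0.16, net -1.45 ± 0.22).

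**Figure D4:**
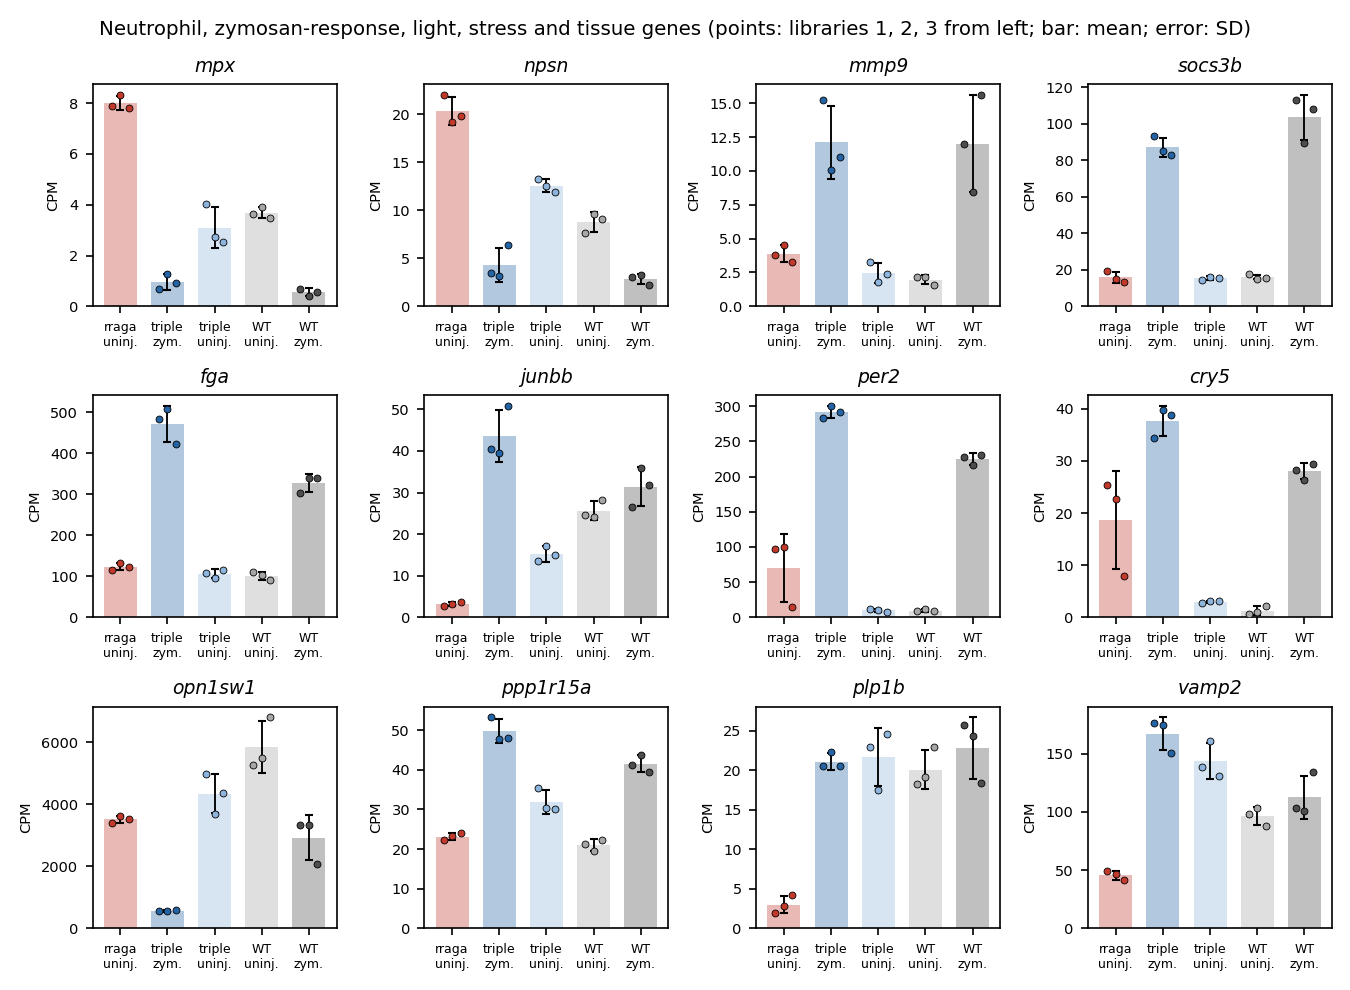
CPM of 12 genes of neutrophils, the zymosan response, light, stress and tissues in 5 groups of 3 libraries (points, with bars for the mean and lines for the SD, y axes from 0). Levels of socs3b and fga are high in both injected groups, per2 is split within the rraga group (97.4, 99.5 and 14.3 CPM), and junbb and plp1b are lowest in rraga mutants.

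Metabolic lists showed a mixed picture. Of cholesterol synthesis and uptake genes 16 of 35 were lower and 0 higher (median -0.35), with the sterol demethylase gene cyp51 at 14.5, 14.6 and 18 against 53.5, 52.4 and 42.8 CPM (-1.66 ± 0.14) and msmo1 (-2.36 ± 0.28), for a methyl sterol oxidase. In the net difference that list had 2 higher and 2 lower. Of fatty acid oxidation, storage and fasting genes 11 of 49 were higher (22.4%) and 7 lower (14.3%), against 12.5% and 12.6% of all genes (median 0.14). The 7 were 4 without rraga replicate 3. The trifunctional protein genes hadhaa, at 89.1, 82.5 and 80.3 against 27.4, 23.4 and 28.0 CPM (1.68 ± 0.11), and HADHB (0.92 ± 0.09) were higher, while pck1, for the gluconeogenic enzyme that fasting induces, was lower (-1.47 ± 0.18). The net difference of the list was 17 higher and 0 lower, at a median of 0.45, where 6.72% of all genes were higher.

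Among stress pathways, 9 of 32 Atf4 target genes were lower (28.1%, against 12.6% of all genes) and 3 higher (9.38%, against 12.5%). In the net difference 1 was higher and 1 lower, as in rraga mutants against uninjected wild type, and injected against uninjected triple mutants had 9 higher and 1 lower. The phosphatase regulator gene ppp1r15a, which restores translation after stress, stood at 22.2, 23.2 and 24.0 against 53.3, 47.8 and 48.1 CPM (-1.10 ± 0.11, adjusted p = 5.56e-08), with no overlap between the groups. The pseudokinase gene trib3 was lower too (-0.99 ± 0.13). Endoplasmic reticulum chaperones had 6 of 24 higher, among them pdia6 (0.92 ± 0.14) and hspa5 (0.49 ± 0.10), and 5 lower (selenos, herpud1, sec61b, edem1 and xbp1), the latter 3 without triple-mutant replicate 1, rraga replicate 1 or rraga replicate 2. Cell cycle genes had 7 of 38 higher (18.4%, against 12.5% of all genes) and 3 lower (7.89%, against 12.6%), with the replication helicase genes mcm2 (1.00 ± 0.10), mcm5 (0.66 ± 0.11) and mcm3 (0.60 ± 0.13) higher. The 3 lower were 1 without triple-mutant replicate 1 or 2 or rraga replicate 1 or 2. Other comparisons held more lower than higher: rraga mutants against uninjected wild type had 0 higher and 10 lower, the net difference 1 and 8, and injected against uninjected triple mutants 1 and 13. Ribosomal protein genes had 4 of 76 higher (5.26%) and 11 lower (14.5%), against 12.5% and 12.6% of all genes (median -0.19). The 4 were 2 without triple-mutant replicate 1, and the 11 were 7 without triple-mutant replicate 3 or rraga replicate 1 and 6 without rraga replicate 3.

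Tissue genes differed in both directions, where 12.5% of all genes were higher and 12.6% lower. Photoreceptor genes had 30 of 56 higher (53.6%) and 6 lower (10.7%), at a median of 0.52. The ultraviolet opsin gene opn1sw1 (ENSDARG00000045677, chromosome 4, 13577665 to 13580348) stood at 3390, 3621 and 3512 CPM in rraga mutants and 555, 547 and 595 CPM in injected triple mutants (2.63 ± 0.16, adjusted p = 2.25e-11). The blue opsin gene opn1sw2 was at 141, 156 and 212 against 27.0, 28.9 and 23.3 CPM (2.68 ± 0.16), and lies within 1 Mb of tfe3b. Yet rraga mutants were below uninjected wild type in both (-0.74 and -0.72), and triple mutants were far lower with zymosan than without (-2.94 and -2.95), so the gap came with injected triple mutants at the lowest level of all groups. The summed level of the list was 7149 to 7757 CPM there and 13540 to 14360 CPM in rraga mutants. Against injected wild type, injected triple mutants had 1 of the 56 higher and 31 lower, where 5.21% and 6.66% of all genes were. The net difference had 22 higher and 4 lower (median 0.62), where 6.72% and 4.59% of all genes were.

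Myelin, neuron and lens lists each held more genes lower than higher in rraga mutants. Of radial glia and myelin genes 11 of 28 were lower and 1 higher (slc1a2a, 0.87 ± 0.16), with a median of -0.26. The proteolipid gene plp1b (ENSDARG00000011929, chromosome 5, 23268121 to 23280098) stood at 2.00, 2.80 and 4.24 against 20.5, 22.3 and 20.5 CPM (-2.81 ± 0.21, adjusted p = 1.05e-09). Its level in the other 3 groups averaged 20.1 to 22.8 CPM, so the rraga libraries were the low ones. The myelin genes mag (-1.16 ± 0.12), mbpb (-0.94 ± 0.11) and mbpa (-0.70 ± 0.10) and the tight junction gene cldnk (-1.98 ± 0.18) were lower, and all 4 were also lower in rraga mutants than in uninjected wild type (-0.94 to -1.90). Of neuron and synapse genes 23 of 44 were lower and 0 higher (median -0.28). The synaptic vesicle gene vamp2 stood at 49.2, 46.3 and 41.3 against 176, 175 and 151 CPM (-1.87 ± 0.12), with the glutamate transporter gene slc17a6b (-1.35 ± 0.12) and the GABA synthesis gene gad2 (-0.77 ± 0.08). Lens genes had 19 of 57 lower and 0 higher (median -0.33), with the limit that near-identical crystallin copies can share reads. Against their own wild type, 27 of 57 were lower in rraga mutants and 25 in injected triple mutants, where 6.41% and 6.66% of all genes were. The net difference had 1 higher and 6 lower, where 6.72% and 4.59% of all genes were.

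Pigment cell genes had 11 of 32 higher (34.4%, against 12.5% of all genes). The 1 lower (3.12%, against 12.6%) was pax7a (-1.27). Tyrosinase transcript (tyr), for the first enzyme of melanin synthesis, stood at 79.9, 83.5 and 81.8 against 36.9, 33.6 and 34.5 CPM (1.22 ± 0.12, net 1.05 ± 0.18). The enterocyte list includes the lysosome-rich cells of the larval gut that absorb protein. It had 13 of 43 genes higher (30.2%) and 3 lower (6.98%), at a median of 0.44. Without triple-mutant replicate 2 these were 8 and 1, and without rraga replicate 3 0 were lower. Besides ctsba and ctsl.1, which are also in the protease list, these included the endocytic receptor genes cubn, at 19.5, 21.0 and 20.4 against 11, 6.43 and 12.8 CPM (1.01 ± 0.22), and lrp2b (1.37 ± 0.30). Skeletal muscle genes had 18 of 60 higher (30.0%) and 4 lower (6.67%), at a median of 0.14. The 18 were 9 without triple-mutant replicate 2 and 11 without triple-mutant replicate 1 or rraga replicate 2. Hepatocyte genes had 9 of 36 higher and 7 lower, and erythrocyte genes 4 of 21 and 0. Exocrine pancreas genes had 3 of 20 higher and 1 lower, where the 3 were 1 to 5 with 1 library left out. Of 18 hypothalamic and stress hormone genes 7 were higher (38.9%) and 3 lower (16.7%). Pituitary hormone genes prl (2.39 ± 0.51), pomca (2.42 ± 0.70) and gh1 (0.86 ± 0.25) were higher. The glucocorticoid target fkbp5 was lower (-0.99 ± 0.20), while another such target, tsc22d3, was higher (4.87 ± 0.26) and near 0 in both triple-mutant groups.

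The largest differences included genes low in a single line, genes high in a single line and a gene high in both injected groups. Called and more than 4-fold apart were 587 genes (3.09%), of which 348 were higher. Leaving out clone-type names, genes with a mean log2 CPM of 1 or less and genes whose libraries overlapped (they did not in 7716 genes, 40.6% of those tested), the largest increases after ctsba were actc1c, for a cardiac-type actin, at 65.5, 62.0 and 59.0 against 0.223, 0 and 0.143 CPM (8.93 ± 0.39), ces2 (7.64 ± 0.38), for a carboxylesterase, and pou3f2b (7.63 ± 0.34), for a neural transcription factor. They were followed by grm2b, nutf2, fam168b, cttnbp2, npdc1b and kdm5ba (6.53 down to 4.95). The largest decrease was in the thymosin gene tmsb1 (ENSDARG00000104181, chromosome 14, 12066695 to 12071679), which had 3 counts in rraga mutants and 1447 in injected triple mutants, for a ratio of 474 with a 95% counting interval from 162 to 2300. Then came cops7a (-7.94 ± 0.39), gngt2a (-6.37 ± 0.40), lta4h (-5.77 ± 0.35), hnrnpa0l (-5.42 ± 0.36), gsr (-3.98 ± 0.38), wnk1b (-3.96 ± 0.29), tcap (-3.90 ± 0.18), crybgx (-3.86 ± 0.17) and junbb.

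All 10 of the largest increases averaged at most 0.986 CPM in injected triple mutants. Apart from ctsba, they stood at -7.82 to -2.74 in injected triple mutants against injected wild type and at -0.38 to 2.74 in rraga mutants against uninjected wild type, comparisons that share libraries with the one that chose them. The 10 largest decreases averaged 0.0715 to 8.60 CPM in rraga mutants. In tmsb1 and hnrnpa0l the rraga mutants stood at -10 and -5.72 against uninjected wild type, and both genes lie on chromosome 14. In lta4h and cops7a the injected triple mutants were the ones apart, at 5.56 and 6.31 against injected wild type. In tcap, for a sarcomere protein, neither line passed against its own wild type (rraga -0.54, injected triple mutants 0.15), both injected groups were high (triple mutants with zymosan over without, 3.04), and the net difference did not pass (-0.69 ± 0.24, adjusted p = 0.0661). The 10 genes with the smallest adjusted p in the net difference were mdh1ab (4.03 ± 0.15, adjusted p = 3.85e-14), kdm5ba, tmsb1, actc1c, ctsba, pou3f2b, tsc22d3, rab11a, fam168b and ces2. The annotation calls mdh1ab a polymorphic pseudogene.

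Large differences lay in blocks along chromosomes. On chromosome 18, from 20 to 25 Mb, 18 of the 44 tested genes passed and were more than 4-fold higher (40.9%, against 3.09% of all genes for either direction), and in the neighbouring 15 to 20 Mb 23 of 82 (28.0%). Between 20 and 25 Mb of chromosome 25 there were 17 of 56 (30.4%). In injected triple mutants against injected wild type these 3 windows had 19, 23 and 18 genes more than 4-fold lower, where 2.22% of all genes passed that mark in either direction, and in rraga mutants against wild type 1, 0 and 0 more than 4-fold higher. Between 15 and 20 Mb of chromosome 12 there were 15 of 84 (17.9%), all higher, and between 20 and 25 Mb of chromosome 24 16 of 90 (17.8%), all lower. Between 10 and 15 Mb of chromosome 14, which holds rraga, 13 of 52 were more than 4-fold lower and 1 higher, and rraga mutants against uninjected wild type had 13 lower there.

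From 1 to 5 Mb around rraga, 14 of 82 genes (17.1%) were more than 4-fold apart, and within 1 Mb 1 of 20. Within 1 Mb of tfe3b there were 5 of 43 (11.6%) and from 1 to 5 Mb 0 of 98. Around tfeb, which lies 3.14 Mb from tfe3b, there were 0 of 15 within 1 Mb and from 1 to 5 Mb 5 of 106 (4.72%), the same 5 genes (ipo9, kdm5ba, olfml3b, opn1sw2 and shisa4). Around tfe3a there were 0 of 40 within 1 Mb and 2 of 83 from 1 to 5 Mb. Effects of a mutation and differences carried on the chromosomes bred with it cannot be told apart with these groups. In all, 16 windows of 5 Mb, each with 20 or more tested genes and 10% or more of them past 4-fold, held 178 of the 587 genes. Among the genes described above, ctsd, acp5b, cubn, lrp2b, rb1cc1, mcm2, msmo1, herpud1, mdh1ab, rab11a and rraga itself also lie in these windows. So do 4 of the 10 largest increases (ces2, nutf2, fam168b and cttnbp2) and 3 of the 10 largest decreases (tmsb1, lta4h and wnk1b). Outside them 24.4% of genes were called. Without these windows, an exclusion chosen after seeing the data, 64 of 130 lysosomal genes were higher and 9 lower, and 17 of 19 proteases higher. Outside the blocks 21 of 55 inflammatory genes and 25 of 34 clock genes were lower.

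**Figure D5:**
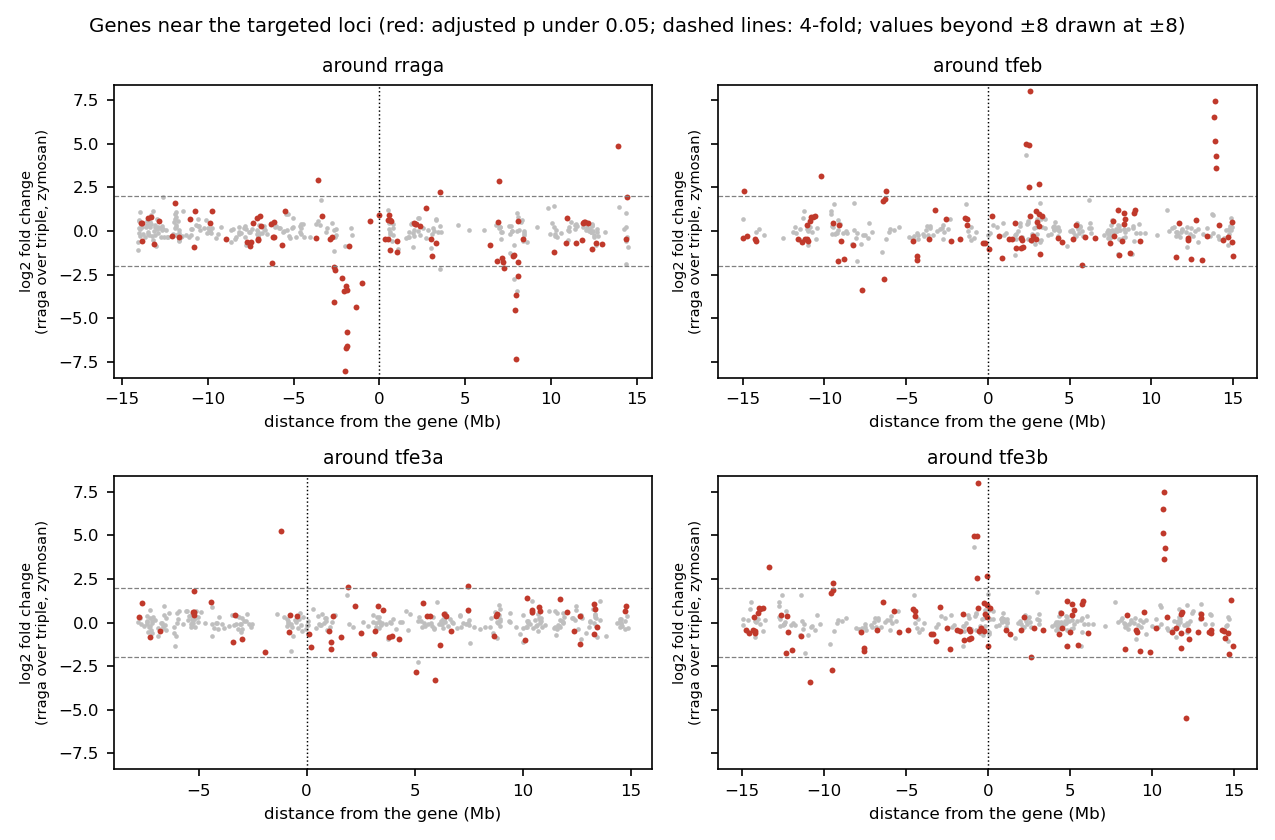
Log2 fold change of genes (y axis, rraga over injected triple mutants, values beyond 8 drawn at 8) by distance in Mb from each of the 4 targeted genes (x axis). Red points passed edgeR's test and dashed lines mark 4-fold. A run of genes below the lower line stands about 2 Mb to the left of rraga, where 14 of 82 genes from 1 to 5 Mb away passed 4-fold.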

How the data were processed

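RNA of 15 libraries (5 groups of 3, replicate numbers and groups from the labels) was analysed, of which 6 enter the main comparison. The authors deposited 3 tables of 6 libraries each, holding raw counts, FPKM values and a signal in which each library's counts are divided by a constant. The submitters' processing notes name HISAT2 2.0.5, StringTie 1.3.3b, featureCounts 1.5.0 and GRCz11, without roles. The strand setting of the counting is not given, so reads of antisense and overlapping genes may be mixed. The deposited signal and FPKM values were not used. The deposited counts of the tables were joined by gene identifier and missing rows set to 0, since each table lists genes with at least 2 counts.

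All 15 libraries entered a single edgeR 4.0.16 quasi-likelihood fit (R 4.3.3) with 1 coefficient per group, after filterByExpr and TMM scaling (factors 0.85 to 1.19). Adjusted p-values are Benjamini-Hochberg over the 19006 genes of each of 5 contrasts. The fit was also run on simulated counts with known changes and a common spread for all genes. That run does not measure the error rate on the real data, where the spread differs by gene. Standard errors come from the F statistic. The p-values measure the spread between samples that the labels call biological replicates. No pair of replicates was identical. Levels are CPM with TMM-adjusted library sizes. Floors and counting intervals reflect counting error alone.

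The comparison, its gene lists and the rule for named genes were chosen with earlier results of these data known. The 33 lists hold 1385 symbols, of which 1246 were found, and 1 further list is not reported here. The named genes comprise 4 targeted genes, the 10 largest increases and decreases within the stated limits, up to 5 called members of each list with the smallest adjusted p, a panel of 31 genes and the 10 net genes with the smallest adjusted p. In the panel flcn (for folliculin), fnip2, lamp1a and slc7a7 were not found under those symbols, and mpeg1.1 and lyz had too few counts to be tested. Other list members are named where a count is small or as examples, after their values were seen. Alternatives were RLE scaling, no mitochondrial genes, no filter, DESeq2 1.42.0, only the libraries compared, a replicate block and each library left out. Genes within 5 Mb of the targeted genes were also dropped from the main result, without a new fit.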

Additional observations from a re-analysis of the deposited data

How the results depend on the processing

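The 4774 genes called in the main comparison were 4770 with RLE scaling, 4782 without mitochondrial genes, 4834 without a filter and 5081 with DESeq2. They were 4698 with only the libraries compared and 3644 to 4126 with 1 library left out. Dropping genes near the targeted loci from the main result, without a new fit, left 4656. Same-numbered samples of the 2 groups did not deviate together (correlations -0.00881, -0.000974 and -0.0269), so they were not treated as pairs. The sources used here do not say what the numbers stand for, and the correlations cannot show whether same-numbered samples shared a clutch or day. A replicate block gave 4550. The net count of 2149 ranged from 1572 (without triple-mutant zymosan replicate 2) to 2862 (without wild-type zymosan replicate 3), and its lower calls, 872, from 575 to 1299. The 2 higher inflammatory genes were 1 with only the libraries compared, and 0 to 2 with 1 library left out; the 23 lower were 19 to 26. Higher proteases were 16 to 19 and higher lysosomal genes 58 to 62 with 1 library left out. Of 185 named genes, 9 lost or gained a call in any alternative and 0 reversed. Over the named genes, 2190 of 2216 values kept direction and call. Most of these genes were chosen for small adjusted p or large changes in the main fit, where 177 of them were called. Their stability was therefore largely set by that choice and does not measure the stability of other calls. Of 952 list counts, 904 stayed within 1.5 times the main count. These include counts where genes near the targeted loci or in the 16 windows were only dropped, without a new fit. Depth limits genes under about 1 CPM, among them il1b, tfe3b and several macrophage markers.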
